A study of Mus musculus with 2 samples.

Results

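The cytosolic ribosomal protein (RP) genes encode the proteins of the large and small subunits of the ribosome that translates nuclear-encoded mRNA. They were chosen by symbol, as Rpl or Rps followed by a number with the usual suffixes, together with Rplp0, Rplp1, Rplp2, and Rpsa, and 82 of the 32285 genes in the deposited tables matched. Of these, 50 belonged to the large subunit and 32 to the small subunit, and they lay on 19 chromosomes. Fau and Rack1, which also encode ribosomal proteins but carry other names, fell outside the choice and are given below beside it. A count of molecules was available for each gene in each droplet barcode of 2 droplet-based 3′ scRNA-Seq libraries of retina.

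The WT library came from male C57BL/6J mice at 7 months of age, and the ND6 library from male mice of the same strain and age whose mitochondrial DNA (mtDNA) carried, in all copies, the 13997 G>A mutation in ND6, a gene for a subunit of respiratory complex I. Because mtDNA comes from the mother, such a line is kept by crossing mutant females with WT males. Retinas of both genotypes were dissociated with papain and trypsin, and each genotype was represented by 1 library, so no test between genotypes was possible. The intervals below are 95% intervals for counting error only, and they do not include the spread between animals or between dissociations.

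A ribosome needs nearly all of its proteins in equal number, and most RP mRNAs start with a terminal oligopyrimidine (TOP) tract, a run of C and T bases through which the mTOR pathway adjusts their translation together. RP mRNAs are short, abundant, long-lived, and cytoplasmic, so they rank among the most frequent transcripts in droplet libraries of almost any cell. Malat1, in contrast, is a long noncoding RNA that stays in the nucleus. The share of Malat1 among the molecules of a barcode is therefore often used as a rough measure of how much nuclear RNA the droplet held.

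Barcodes with more than 400 unique molecular identifiers (UMIs, each standing for 1 captured RNA molecule) and more than 200 genes were kept, which left 23176 barcodes with 67391917 UMIs in WT and 22256 barcodes with 67624906 UMIs in ND6. The median barcode held 1432 UMIs in WT and 1331 in ND6. Transcripts of mtDNA made up 12.9% of UMIs in WT and 8.80% in ND6, and Malat1 made up 2.64% and 2.57%. The libraries had 143 barcode sequences in common, 0.617% of the WT and 0.643% of the ND6 barcodes. Doublets were not removed, and both libraries held more kept barcodes than the number of cells the study aimed to profile.

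The bases around the annotated transcription starts of RP genes are shown first, for 2 members that open with a TOP-like run and for members at the ends of the order by Malat1 share described below. RefSeq lists 62 of the 82 genes in the table of starts used here (build GRCm38.p6, which is mm10). Read from a listed start onward, without regard to the bases before it, 13 of these 62 genes (20.97%) opened with a pyrimidine run. The run had at least 5 bases, a C followed by C or T only. The share was 3.01% among 27025 genes of all kinds. C and T bases can also stand just before the start, so the run need not begin there. Within 15 bases on either side of a start, such a run occurred in 41 of the 62 genes (66.1%) and in 40.3% of all genes. Each line gives 15 bases before and 15 bases from the start, 5′ to 3′ on the strand of the gene, with the run in capitals where there is one.
Rpl35, chr2:39005117-39005146, minus strand: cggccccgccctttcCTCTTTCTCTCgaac
Rpl38, chr11:114668565-114668594, plus strand: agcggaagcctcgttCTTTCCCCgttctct
Rps24, chr14:24490663-24490692, plus strand: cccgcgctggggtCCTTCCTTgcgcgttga
Rps12, chr10:23787195-23787224, minus strand: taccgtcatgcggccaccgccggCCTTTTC
Rps28, chr17:33824548-33824577, minus strand: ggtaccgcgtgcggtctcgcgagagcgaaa
Rpl4, chr9:64173372-64173401, plus strand: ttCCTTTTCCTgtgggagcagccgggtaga
Rps2, chr17:24720048-24720077, plus strand: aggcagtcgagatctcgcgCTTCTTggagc
Rpl10, chrX:74270801-74270830, plus strand: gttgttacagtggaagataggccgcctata
Rpl36al, chr12:69184053-69184082, minus strand: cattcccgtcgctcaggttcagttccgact
Rps27l, chr9:66946071-66946100, plus strand: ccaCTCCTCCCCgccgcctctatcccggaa
In Rpl35 and Rpl38 the capitals begin at the start itself, though C or T bases also stand just before it. In Rps24, Rpl4, and Rps27l the run began before the start, and in Rps12 and Rps2 after it. Rpl10, Rpl36al, and Rps28 held no such run in the window shown. Rps29 and Rplp1, also at the end of that order, are named only. A match is a description of the letters, and the listed start need not be the start used in retina.

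Of the 82 RP genes, 79 had at least 20 UMIs over both libraries, and the same 79 had at least 500. The other 3 were paralogs, copies of an RP gene with a restricted pattern of use in other tissues. Rpl10l had 0 UMIs in either library, which allows up to 3 counts. Rpl3l, known from striated muscle, had 8 UMIs in WT and 7 in ND6. Rpl39l, known from testis, had 1 UMI in WT and 10 in ND6, with a log2 ratio of 2.80 whose interval ran from 0.50 to 8.76. Their parent genes were abundant, at 416.6 CPM (UMIs of the gene per 1000000 UMIs) in WT and 357.9 in ND6 for Rpl10, 870.1 and 1027 for Rpl3, and 996.7 and 934.2 for Rpl39. The 2 remaining paralogs, Rps27l and Rpl36al, were measurable and are described below.

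RP genes took 5349667 of the WT UMIs, or 7.94% (7.93% to 7.94%), and 5506088 of the ND6 UMIs, or 8.14% (8.14% to 8.15%). On the log2 scale the ND6 share was 0.037 above the WT share (0.035 to 0.038). The direction of this small difference depended on how barcodes were weighted. With each barcode counted equally, the mean share was 10.5% in WT and 9.90% in ND6, a log2 ratio of -0.090, and with Malat1 and mtDNA transcripts taken out of the total the ratio was -0.033. Barcodes with 10 to 100 UMIs, a range taken here as free RNA without a cell, had RP shares of 9.26% in WT and 8.68% in ND6, both above the pooled share of the kept barcodes.

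The RP share was lower in barcodes with a larger Malat1 share in both libraries. In barcodes with a Malat1 share of at least 3%, called high-Malat1, RP genes took 5.20% of UMIs in WT and 5.50% in ND6. Below 1.5%, called low-Malat1, they took 11.3% in WT and 10.7% in ND6. The low-Malat1 share was thus 2.17-fold higher in WT (log2 1.12, 1.11 to 1.12) and 1.94-fold higher in ND6 (0.96, 0.96 to 0.96). Most barcodes were of the low-Malat1 kind, with 17822 of 23176 in WT and 15644 of 22256 in ND6, against 4038 and 4577 high-Malat1 barcodes.

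The decrease was graded. Below a Malat1 share of 0.25% the RP share was 11.9% in WT and 12.0% in ND6. It was 6.64% and 7.19% between 2% and 3%, and it reached 4.01% and 4.11% at 6% or more. The same order held in every step within rod-like barcodes, where the share ran from 12.2% to 3.90% in WT and from 12.1% to 4.02% in ND6. From 0.5% upward, each ND6 step lay above the WT step at the same Malat1 share, by 0.035 to 0.18 on the log2 scale over all barcodes, and in the steps below 0.25% and from there to 0.5% the differences were 0.011 and -0.017.

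**Figure D1:**
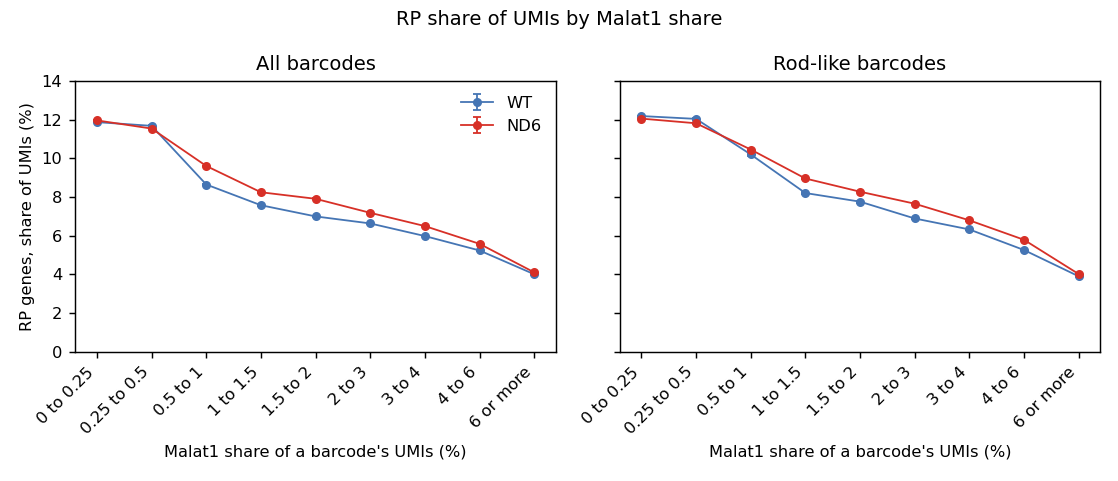
RP genes as a percentage of all UMIs (vertical axis) in barcodes grouped by their Malat1 share of UMIs (horizontal axis, percent), for all barcodes on the left and rod-like barcodes on the right, with WT in blue and ND6 in red. Points are pooled shares with 95% counting intervals, most of which are smaller than the points; in both libraries the share falls from about 12.0% at the lowest Malat1 shares to about 4.01% at the highest.

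Depth and mtDNA transcripts moved along with the Malat1 share. Low-Malat1 barcodes had a median of 1238 UMIs in WT and 1190 in ND6, against 3854 and 2703 in high-Malat1 barcodes, and mtDNA transcripts made up 20.9% and 12.0% of their UMIs against 7.11% and 6.05%. Without Malat1 and mtDNA transcripts in the total, the RP share of low-Malat1 barcodes was 14.3% in WT and 12.2% in ND6, and that of high-Malat1 barcodes 5.92% and 6.20%. Within rod-like barcodes of 1000 to 2000 UMIs, the shares were 12.1% in WT and 12.0% in ND6 at low Malat1 and 4.53% in WT and 4.75% in ND6 at high Malat1. Within rod-like barcodes that had at most 20% mtDNA transcripts, they were 12.2% and 11.5% at low Malat1 and 5.21% and 5.42% at high Malat1. The gap between the Malat1 groups was therefore present at matched depth and under the mtDNA limit.

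Almost every RP gene shared the gap. In WT, 79 of the 79 genes with enough UMIs were higher in low-Malat1 barcodes, and 78 were higher by at least 0.5 on the log2 scale, where 11.5% of 14205 genes of all kinds were higher by that much and 62.1% were lower. In ND6 it was again 79 of 79 in direction and 78 past 0.5, against 8.94% higher and 53.5% lower among 14639 genes. The median RP gene was 1.09 higher in WT and 0.96 higher in ND6, where the median of all genes was -0.80 and -0.56. Among genes with at least 500 UMIs, a limit that all 79 passed, 7.31% in WT and 7.41% in ND6 were higher by 0.5 or more.

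Of the 5 genes with the widest gap by the mean of both libraries, 4 encode proteins of the small subunit. Rps29, a zinc-binding protein of the small subunit, was at 4588 CPM in low-Malat1 and 1701 CPM in high-Malat1 barcodes of WT, and at 3363 and 1468 CPM in ND6. These are log2 differences of 1.43 (1.42 to 1.45) and 1.20 (1.18 to 1.21). Rps24 differed by 1.40 and 1.11, Rps12 by 1.34 and 1.13, Rps28 by 1.34 and 1.12, and Rplp1 by 1.33 and 1.11 in WT and ND6. All 5 were above the median RP gene in each library.

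At the other end lay Rps27l, Rpl36al, Rpl4, Rps2, and Rpl10. Rps27l, a paralog of Rps27 and a known target of p53, was at 79.5 CPM in low-Malat1 and 78.1 CPM in high-Malat1 barcodes of WT, a log2 difference of 0.027 (-0.059 to 0.11). In ND6 it was at 93.6 and 68.9 CPM, a difference of 0.44 (0.35 to 0.53). It was the RP gene that did not pass 0.5 in either library, and in rod-like barcodes of WT it was lower in the low-Malat1 group, at -0.24. Its parent Rps27 differed by 1.18 in WT and 0.99 in ND6.

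Rpl36al, a retained copy of Rpl36a, differed by 0.63 in WT and 0.64 in ND6, while Rpl36a differed by 1.21 and 1.03. Both paralogs that could be measured therefore had a narrower gap than their parents, and Rpl36al lies on chromosome 12 apart from Rpl36a on chromosome X. Rpl4, a large-subunit protein that lines the exit tunnel of the nascent chain, differed by 0.60 and 0.67. Rps2 differed by 0.77 and 0.54, and Rpl10, which joins the large subunit late in its assembly, by 0.77 and 0.64. Counts of Rps2, Rpl10, and other members with many near-identical processed copies in the genome are uncertain where reads match several places.

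**Figure D2:**
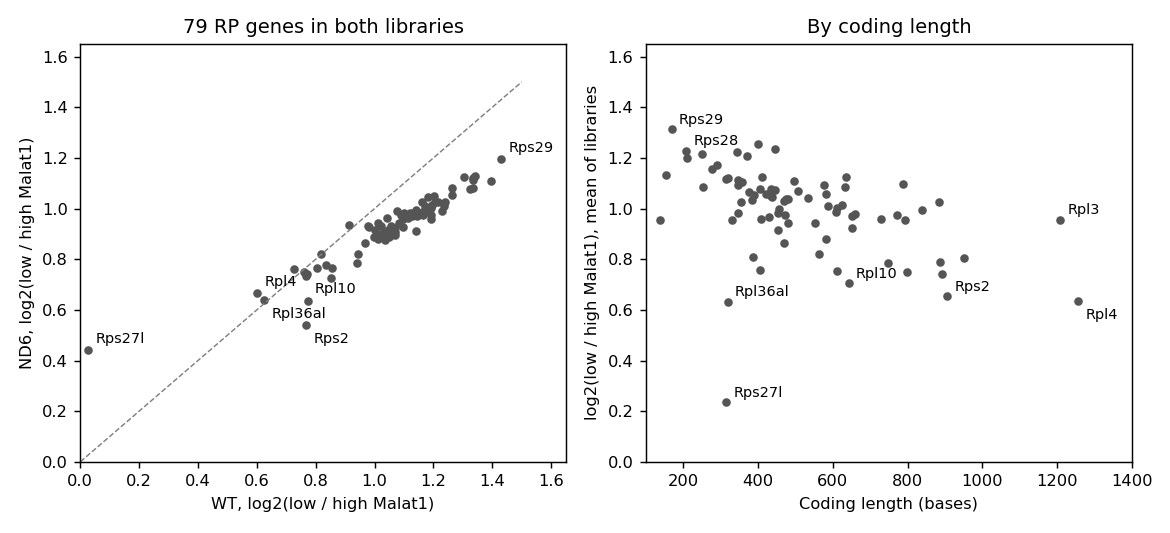
Left, log2 ratio of CPM in low-Malat1 over high-Malat1 barcodes for the 79 RP genes with at least 500 UMIs, WT on the horizontal and ND6 on the vertical axis, with a dashed line at equal values. Right, the mean of both libraries (vertical) against coding length in bases (horizontal); Rps29 is at the top at 1.31 and Rps27l at the bottom at 0.23, and longer genes such as Rpl4 at 0.63 lie low.

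The order of the members went with the length of their coding sequence, which the choice of genes did not use. Over the 79 genes, Spearman's rho between coding length and the log2 difference was -0.51 in WT and -0.53 in ND6, and without the paralogs ending in l it was -0.59 and -0.62 over 77 genes. With the length of the whole transcript, rho over the 79 genes was weaker, at -0.27 in WT and -0.27 in ND6. The 26 genes with the shortest coding sequence, at most 399 bases, had a median difference of 1.19 in WT and 1.03 in ND6. The 26 with the longest, at least 582 bases, had medians of 1.02 and 0.91. Rps29 is coded by 168 bases and Rps28 by 207, against 1257 for Rpl4 and 906 for Rps2. Other coding genes followed coding length as well, with a rho of -0.37 over 12761 genes in WT and -0.36 over 13045 in ND6. By transcript length their rho was -0.36 and -0.33. The values are across genes of the same 2 libraries, and genes are not independent replicates. By start sequence the medians were close, as the 13 members with a run at a listed start had a median difference of 1.12 in WT and 0.98 in ND6, and the 46 without had 1.10 and 0.95.

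Genes that act with the RP genes were examined from lists of translation factors, ribosome assembly factors, and regulators. Of 19 genes for elongation factors and other TOP mRNAs, 13 were higher by at least 0.5 in low-Malat1 barcodes in each library and 0 were lower by that much, with medians of 0.70 in WT and 0.66 in ND6. Of all genes, 11.5% in WT and 8.94% in ND6 were higher by that much, and 62.1% and 53.5% were lower. Fau, whose product is cleaved into a ubiquitin-like protein and a ribosomal protein, differed by 1.24 in WT and 1.04 in ND6. Rack1, a scaffold on the small subunit, differed by 0.90 and 0.85. Both genes thus lay within the range of the RP genes. The lowest was Pabpc1, which binds poly(A) tails, at -0.39 in WT, and Npm1, a nucleolar chaperone of ribosome assembly, at -0.044 in ND6.

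Ribosome assembly genes, whose products act mainly in the nucleolus, were close to genes of all kinds. Of 30, 19 were lower by at least 0.5 in low-Malat1 barcodes of WT and 14 in those of ND6, where 62.1% and 53.5% of all genes were. Of the same 30, 1 was higher by that much in each library, where 11.5% of all genes in WT and 8.94% in ND6 were. The medians of the 30 were -0.56 and -0.29. The extremes were Taf1d, a factor of RNA polymerase I, at -1.87 and -1.71, and Nhp2, a protein of small nucleolar particles, at 0.58 and 0.50. The 14 genes of the mTOR and S6 kinase pathway had medians of -0.96 and -0.73, with 10 lower by at least 0.5 in each library, beside the same 62.1% and 53.5% of all genes. They ranged in WT from Rps6kb1, the S6 kinase, at -1.86 to Rheb at 0.18, and in ND6 from Rps6kb2 at -1.44 to Eif4ebp1, a repressor of cap-dependent translation, at 0.75.

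The 77 genes for proteins of the mitochondrial ribosome, which are made in the cytosol and imported, gave a further comparison. Their medians were -0.057 in WT and 0.069 in ND6, and they ran from -1.12 for Mrps27 to 0.83 for Mrpl52 in WT and from -1.03 for Mrpl16 to 0.77 for Mrps21 in ND6. In WT 9 were higher and 21 lower by at least 0.5, and in ND6 14 were higher and 9 lower. Of all genes, 11.5% were higher and 62.1% lower in WT, and 8.94% were higher and 53.5% lower in ND6. Over all barcodes the 4 nuclear RNAs were all lower, from -2.01 for Neat1 to -4.30 for Malat1 in WT and from -1.73 to -3.37 in ND6, and Malat1 itself defined the groups. Within rod-like barcodes Meg3 went the other way, at 0.83 in WT and 0.83 in ND6.

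The RP share was next compared between classes of barcodes. The barcodes of both libraries were clustered without the RP genes, Malat1, and mtDNA genes, and clusters were named from marker genes, so neither the clusters nor their names were built on RP genes. A name such as rods stands for barcodes that resemble the type. The naming left 5214 WT and 3723 ND6 barcodes unnamed. Rods, the most numerous neurons of mouse retina, had RP shares of 8.12% in 15329 WT barcodes and 8.66% in 14894 ND6 barcodes. Microglia- or macrophage-like barcodes had the highest share of a named class in both libraries, at 12.5% in 467 WT and 12.0% in 193 ND6 barcodes. Their larger cluster had 14.5% and 12.9%. Its leading genes began with Igkc, Ighg2b, and Ccl5, genes of plasma cells and other lymphocytes. The same leading genes also held Aif1, H2-Eb1, and Tyrobp, itself a microglia marker here, and all 6 microglia markers were raised in the cluster. Their smaller cluster was led by Cxcl2, Il1b, and Ccl3 and had 8.96% and 10.1%.

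The other classes lay between 5.12% and 6.56% in WT and between 5.68% and 6.98% in ND6, red blood cells apart. Cones had 5.47% and 6.35% in 915 and 1217 barcodes, and bipolar cells 6.28% and 6.20% in 271 and 684. Amacrine cells had 5.82% and 6.04% in 97 and 331, and Müller glia, which span the retina and support its neurons, 5.12% and 5.68% in 78 and 128. The retinal pigment epithelium (RPE), the layer behind the photoreceptors, had 6.56% and 6.98% in 593 and 1052. In these pooled shares Müller glia were the lowest in both libraries, red blood cells apart, and the microglia-like class the highest. The low end was not stable, since with barcodes counted equally Müller glia had 7.29% in WT, above bipolar cells at 6.63%, and amacrine cells were lowest in ND6, at 5.17%. With classes assigned barcode by barcode, Müller glia had 13.6% in ND6, above the microglia-like class at 12.8%. Red blood cells had 7.71% in 212 WT barcodes and 2.73% in 34 ND6 barcodes, a number too small for a firm value. The WT value was not stable either. Assigned barcode by barcode, red blood cells had 2.20% in 33 WT and 1.21% in 14 ND6 barcodes. The unnamed barcodes had 11.4% and 11.5%, with mtDNA transcripts at 31.8% and 23.7%.

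Within each class with at least 20 barcodes in both Malat1 groups, which left out red blood cells, low-Malat1 barcodes had the larger RP share in both libraries, but the size of the gap differed. In the microglia-like class the share was 17.4% at low and 7.23% at high Malat1 in WT and 16.4% and 7.52% in ND6, log2 differences of 1.27 and 1.13. In rods it was 11.9% and 5.20% in WT and 11.4% and 5.42% in ND6, differences of 1.19 and 1.07. The gap was 0.58 and 0.47 in cones, 0.54 and 0.61 in Müller glia, 0.43 and 0.77 in amacrine cells, and 0.23 and 0.39 in bipolar cells. RPE had 0.11 in WT, from 33 high-Malat1 barcodes, and 0.43 in ND6, from 63. An RPE cluster led by Mlana, with 0.17% Malat1 and 5.46% RP in WT, held 103 barcodes in WT and 2 in ND6. Its WT barcodes were deep, with a median of 8087 UMIs. The RPE mix therefore differed between the libraries, and its part in these 2 gaps was not tested. At high Malat1 the named classes lay closer together, between 4.44% for Müller glia and 7.23% for the microglia-like class in WT and between 4.74% and 7.52% for the same classes in ND6.

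**Figure D3:**
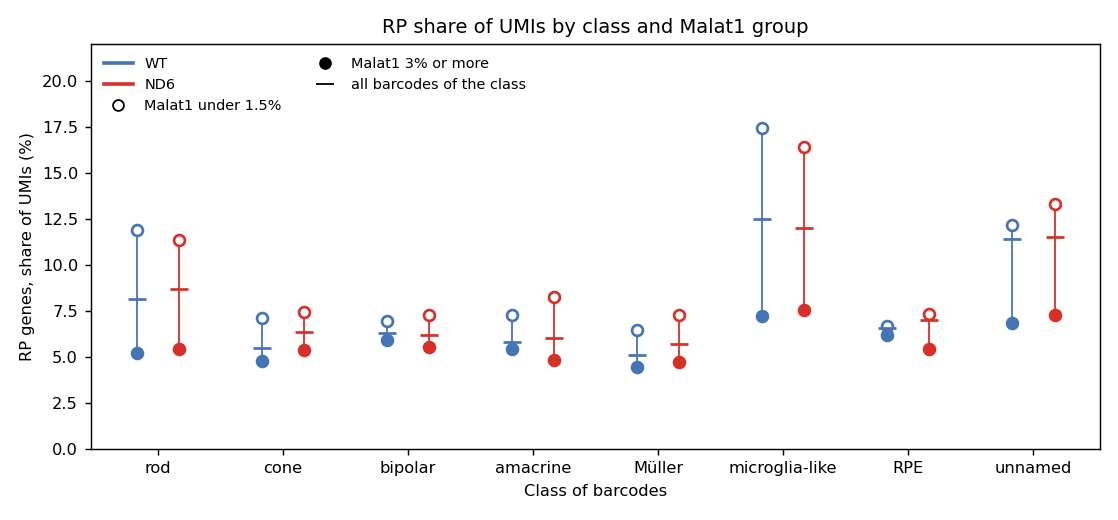
RP genes as a percentage of UMIs (vertical axis) for 8 classes of barcodes, WT in blue and ND6 in red. Open circles are low-Malat1 barcodes (under 1.5%), filled circles high-Malat1 barcodes (3% or more), and dashes all barcodes of the class; the open circle lies above the filled one in each of the 8 classes drawn, and the microglia-like class reaches 17.4%.

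The division of barcodes between the Malat1 groups differed by class. Rods had 11330 low-Malat1 and 3163 high-Malat1 barcodes in WT, while bipolar cells had 43 and 164. Depth differed as well, and the median UMI count was 5290 in WT cones and 4786 in bipolar cells but 1501 in rods. The part that depth and the Malat1 share had in the differences between classes was not tested.

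The makeup of the RP pool, meaning the share of each gene among RP UMIs, was compared as well. Large-subunit genes supplied 55.2% of RP UMIs in WT and 55.7% in ND6. They supplied 57.9% and 57.1% in amacrine cells and 57.5% in RPE of both libraries, and 55.0% and 55.4% in rods. At low Malat1 the shares were 54.9% and 55.6%, and at high Malat1 55.8% and 56.0%. A few members stood apart by class, while no member of rods, cones, or bipolar cells differed from all other barcodes by 0.5 or more on the log2 scale in both libraries.

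Rps27l was the member most tied to a class. In RPE it took 0.289% of RP UMIs in WT (383 UMIs) and 0.263% in ND6 (336 UMIs), against 0.0961% and 0.0960% in all other barcodes, log2 differences of 1.59 (1.43 to 1.74) and 1.45 (1.29 to 1.61). In CPM this was 190 and 183 in RPE against 76.7 and 78.5 elsewhere. Müller glia had the second highest values, 0.88 in WT and 0.66 in ND6, from 68 and 34 UMIs. The other paralog, Rpl36al, was also highest in RPE, at 0.81 and 0.88, followed by amacrine cells at 0.69 and 0.48. Rpl41, the smallest ribosomal protein, and Rpl10 were the remaining members past 0.5 in RPE of both libraries, at 0.79 and 0.75 and at 0.61 and 0.60.

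Rpl10 was raised in several classes. In the microglia-like class, most of whose barcodes lay in the cluster led by Igkc, it took 1.14% of RP UMIs in WT and 0.900% in ND6, against 0.509% and 0.435% elsewhere, differences of 1.16 and 1.05. It was also the highest member in amacrine cells, at 0.82 and 0.52, and stood at 0.41 and 0.54 in bipolar cells. In rods it was the lowest member, at -0.49 and -0.44. In the free RNA range it was at 773.8 CPM in WT and 834.9 in ND6, above its level over all kept barcodes, 416.6 and 357.9. Its part from free RNA was not tested.

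The class named microglia-like from its markers had 6 members past 0.5 in both libraries, the most of a named class. Of its barcodes, 419 of 467 in WT and 167 of 193 in ND6 lay in the larger cluster. That cluster was led by lymphocyte genes but had all 6 microglia markers raised, and the values of the class are mainly those of that cluster. Rps9 and Rpl39 were higher, at 0.67 and 0.69 and at 0.59 and 0.51. Rps15, at -0.56 and -0.51, and Rpl9, at -0.54 and -0.56, were lower within the RP pool. As the pool itself was larger there, Rpl9 stood at 2283 CPM in WT and 2039 in ND6, close to the 2093 and 2031 of other barcodes. Amacrine cells had less Rpl22, at -0.89 and -0.53, and less Rpl10a, at -0.67 and -0.58, and both of these were the leading members of rods, Rpl10a at 0.30 and 0.35 and Rpl22 at 0.28 and 0.32. Rods supply most of the other barcodes in each comparison, so values of the smaller classes are largely set against rods.

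In the remaining classes the leading members moved less. Among the leading members by the lower value of both libraries were Rpl4 in cones, at 0.36 and 0.26, and, after Rps27l, Rpl18 in Müller glia, at 0.48 and 0.43. Red blood cells were led by Rpl37, at 0.23 and 0.19, and Rps29, at 0.19 and 0.20, with 44 and 96 UMIs in ND6.

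**Figure D4:**
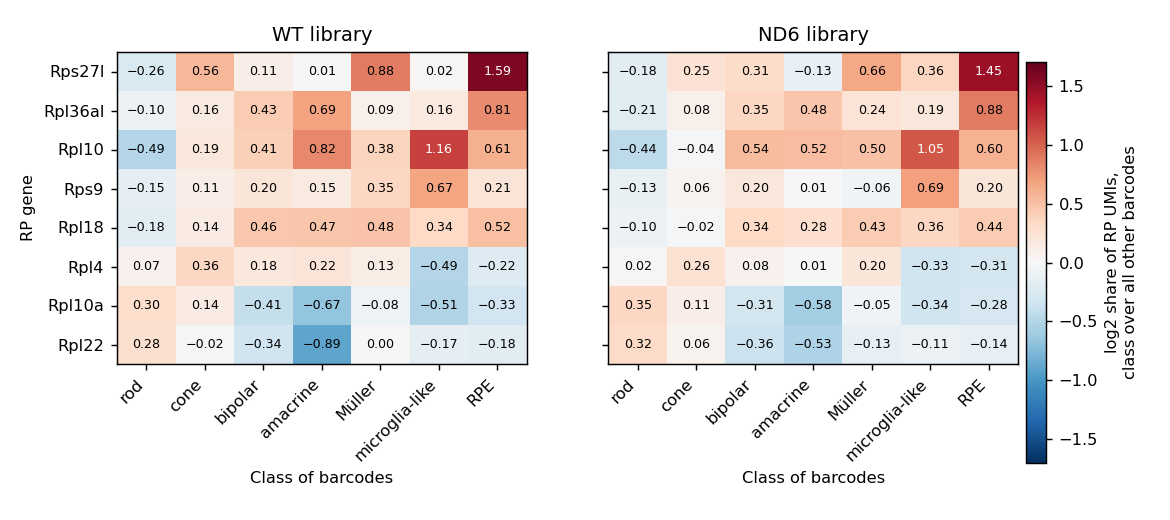
Log2 ratio of the share of RP UMIs in a class to that in all other barcodes (color and printed value) for 8 RP genes (rows) in 7 classes (columns), WT on the left and ND6 on the right. Rps27l in RPE has the highest values, 1.59 in WT and 1.45 in ND6, and Rpl10 in the microglia-like class follows with 1.16 and 1.05.

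The last comparison was between the genotypes, gene by gene. None of the 79 RP genes differed between the libraries by 0.5 or more on the log2 scale (0 of 79), where 26.4% of 16076 genes were higher in ND6 and 6.35% lower by that much. Among the 10423 genes with at least 500 UMIs, the shares were 15.1% and 3.24%. In direction, 50 RP genes were higher in ND6 and 29 lower, where 10758 of 16076 genes of all kinds were higher. The median RP gene was at 0.042 in CPM, below the medians of 0.17 over all genes and 0.10 over genes with at least 500 UMIs. It was -0.12 with scaling by the median of ratios. Over all barcodes the RP genes were thus lower in ND6 than the typical gene. This did not hold within each class. In rods both medians were 0.12, and in cones (0.23 against 0.0021), Müller glia (0.14 against -0.046), and RPE (0.090 against 0.036) the RP genes lay above the typical gene. The medians of large-subunit and small-subunit genes were 0.041 and 0.042.

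The 2 highest ratios were those of Rpl4 and Rpl3, which both have long coding sequences. Rpl4 was at 440.8 CPM in WT and 527.3 in ND6, a log2 difference of 0.26 (0.24 to 0.28), and Rpl3, a core protein near the peptidyl transferase center, was at 870.1 and 1027, a difference of 0.24 (0.22 to 0.25). Rpl35a, Rps20, and Rpl13a followed with 0.21 each, and of these Rpl35a and Rps20 have short coding sequences of 330 and 357 bases. Spearman's rho between coding length and this difference was 0.27 over the 79 genes, and 0.17 over 13990 other coding genes. By transcript length it was 0.17 and 0.18.

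Rps29 was the lowest, at 2990 CPM in WT and 2422 in ND6, a difference of -0.30 (-0.31 to -0.29). Rpl35, which lies by the exit of the tunnel, was at 601.3 and 493.9 (-0.28), Rps26, a protein at the mRNA exit channel, at 624.2 and 522.0 (-0.26), Rpl10 at 416.6 and 357.9 (-0.22), and Rpl6 at 801.7 and 720.7 (-0.15). All of these were also lower in ND6 within rod-like barcodes, from -0.27 for Rps29 to -0.094 for Rpl6. They remained lower within each Malat1 group, with Rps29 at -0.45 at low and -0.21 at high Malat1.

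The stalk of the large subunit, which recruits the translation factors, is built from Rplp0, Rplp1, and Rplp2. Rplp0, its base, was at 411.5 CPM in WT and 474.2 in ND6 (0.20), Rplp1 at 2589 and 2537 (-0.030), and Rplp2 at 890.9 and 936.8 (0.073). Rpsa, which is also known as the laminin receptor, was at 1273 and 1349 (0.084). The paralogs with enough UMIs were nearly level, with Rps27l at 80.1 and 81.3 CPM (0.021) and Rpl36al at 196.7 and 190.4 (-0.047).

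Over all barcodes, the pooled genotype difference had opposite signs at high and low Malat1. At high Malat1, 62 of 79 RP genes were higher in ND6 with a median of 0.099, and at low Malat1 55 were lower with a median of -0.047. Of all genes, 9159 of 14626 were higher at high Malat1 and 2747 of 14038 were lower at low Malat1. The medians of all genes were 0.13 at high and 0.37 at low Malat1. Pooled, the RP share at high Malat1 was 0.081 higher in ND6 (0.078 to 0.085), and at low Malat1 it was -0.075 (-0.078 to -0.073). With barcodes counted equally, both groups were lower in ND6, at -0.025 and -0.053. The low-Malat1 group also had a different mix, as 57.0% of all WT but 27.8% of all ND6 barcodes lay below 0.25%. In the narrower steps up to 1.5% the pooled ratios of ND6 to WT were 0.011, -0.017, 0.15, and 0.12. The part of this mix in the value of -0.075 was not tested. The pooled signs differed by class too. Rods were at 0.059 at high and -0.066 at low Malat1, cones were higher in ND6 in both groups, at 0.17 and 0.062, and bipolar cells (-0.091 and 0.064), amacrine cells (-0.16 and 0.19), and RPE (-0.19 and 0.13) turned the opposite way. With barcodes counted equally, rods were at -0.048 at high and -0.066 at low Malat1, and cones at 0.041 and -0.13. Bipolar cells were then at -0.13 and -0.27, amacrine cells at -0.39 and -0.23, and RPE at 0.14 and -0.21. The turn in these 3 classes was thus not kept. Over all barcodes, Rps27l went against the pooled RP share, at 0.24 at low and -0.18 at high Malat1. The pooled direction also turned with depth. In barcodes of up to 600 UMIs the share was 10.8% in WT and 9.67% in ND6, a log2 ratio of -0.16, and at 10000 UMIs or more it was 5.34% and 6.45%, a ratio of 0.27.

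By class, the pooled ND6 share was higher in cones (0.21), Müller glia (0.15), rods (0.093), RPE (0.089), and amacrine cells (0.054), and lower in bipolar cells (-0.018), microglia-like barcodes (-0.058), and red blood cells (-1.50). With barcodes counted equally, each named class was lower in ND6, with rods at -0.061, cones at -0.051, bipolar cells at -0.14, amacrine cells at -0.38, Müller glia at -0.36, microglia-like barcodes at -0.025, RPE at -0.20, and red blood cells at -0.68. By cluster, 7 of the 8 rod clusters had a lower pooled share in ND6, and the remaining 1 rose from 5.77% to 6.58%. Of the 2 cone clusters, 1 fell from 9.31% to 8.12% and the other rose from 5.32% to 6.29%. Both RPE clusters were lower in ND6. The pigmented cluster of the RPE class, led by melanocyte genes, held 103 barcodes in WT and 2 in ND6, with RP shares of 5.46% and 4.66%, and the other RPE cluster had 7.55% in WT and 6.99% in ND6. With 1 library per genotype, a difference of this size and a difference between dissociations cannot be told apart.

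**Figure D5:**
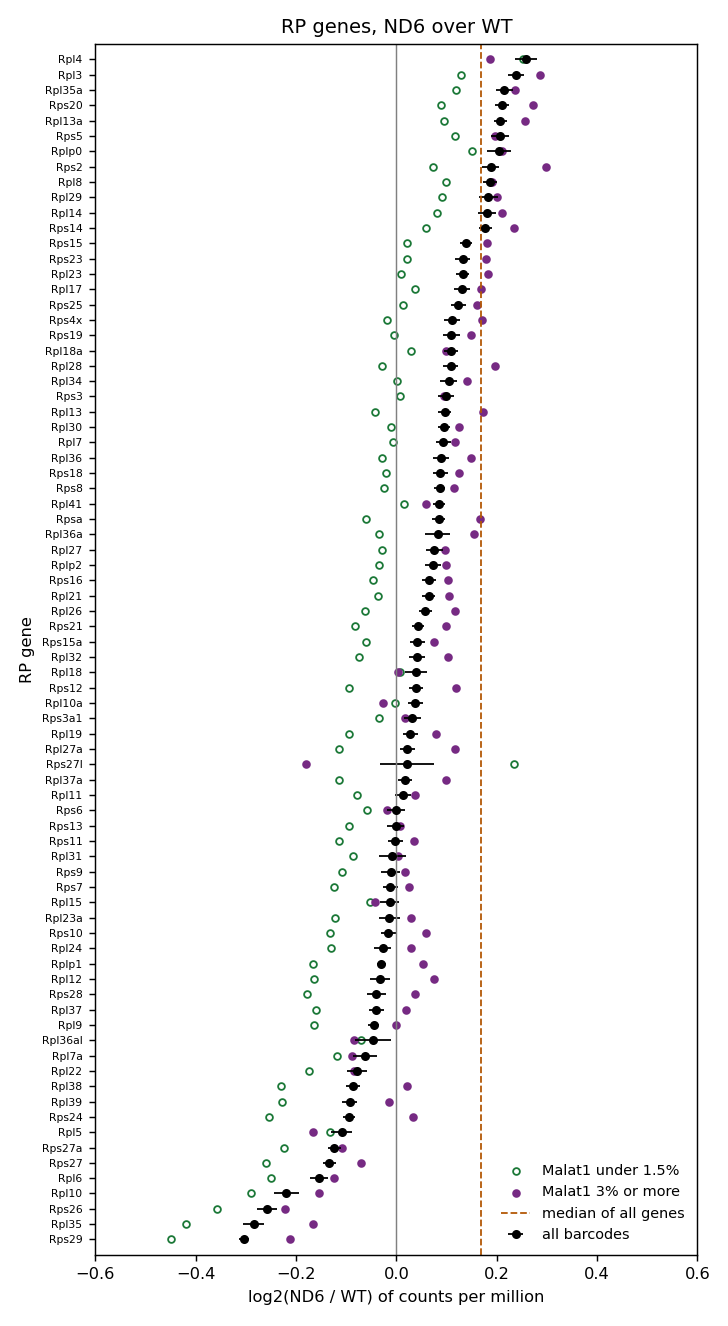
Log2 ratio of CPM in ND6 over WT (horizontal axis) for 78 of the 79 RP genes with at least 500 UMIs (vertical axis, ordered by the value over all barcodes). Black points with 95% counting intervals are all barcodes, open green points low-Malat1 and filled purple points high-Malat1 barcodes, and the dashed line is the median of all genes, 0.17; the values run from -0.30 for Rps29 to 0.26 for Rpl4.

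Few of the pathway genes differed between genotypes by 0.5 or more, where 26.4% of all genes were higher and 6.35% lower in ND6 by that much. In the list of elongation factors and other TOP mRNAs the median was 0.021, 0 of 19 passed 0.5, and the highest was Eef2, the translocation factor of elongation, at 0.47. Ribosome assembly genes had a median of -0.18, with 2 of 30 lower by at least 0.5, Nop16 at -0.83 and Taf1d at -0.77, and the highest was Rrp1 at 0.25. The mTOR and S6 kinase genes had a median of 0.077, from Eif4ebp1 at -0.51 (105 UMIs in WT and 74 in ND6) to Akt1s1 at 0.47, with 1 of 14 past 0.5. Mitochondrial ribosomal protein genes had a median of -0.030, from Mrps6 at -0.91 to Mrpl57 at 0.34, with 2 of 77 lower by at least 0.5. Of the 4 nuclear RNAs, 2 were higher by at least 0.5, Kcnq1ot1 at 0.53 and Meg3, a maternally expressed noncoding RNA, at 2.19, and Malat1 was at -0.041.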

How the data were processed

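For each library, the authors aligned reads to mm10 with Cell Ranger (version 3.0.2 in the submitters' processing notes) and deposited raw counts of UMIs per gene and barcode, without normalization. Annotation coordinates are from GENCODE M21 and RefSeq (GRCm38.p6). Barcodes with more than 400 UMIs and 200 genes were kept, with no limit on mtDNA transcripts. Counts were log-normalized, 3000 variable genes were scaled within library, and 30 components, 20 neighbors, and resolution 1 were used for Leiden clustering (Scanpy 1.11.5, igraph 0.11.9), without RP genes, Malat1, and mtDNA genes. A cluster was named when it had at least 20 barcodes, at least 3 markers and 0.667 of the markers of a class raised 2-fold, more than for any other class. Rods were named afterwards, against the named clusters other than cones, by a rule settled after the clusters were seen. Of the rod-like clusters, 1 had 3 of 6 rod markers raised. UMIs were summed per library, scaled to CPM, and compared as log2 ratios with 0.5 UMIs added, for genes with at least 20 UMIs in the sums compared. Intervals are exact (Clopper-Pearson for shares, conditional binomial for ratios; SciPy 1.17.1). With 1 library per genotype, no test, SE, or p-value was computed. Named genes were the 5 highest and 5 lowest ratios of each comparison among members with at least 500 UMIs, the 2 leading members per class (at least 20 UMIs in each library), the stalk proteins and Rpsa, the paralogs ending in l and their parents, and the highest and lowest gene of each list, with further members past 0.5 within a class, Fau, Rack1, and Kcnq1ot1 named after their values were seen. The coding length is that of the longest coding sequence per gene, and the transcript length is that of the same transcript. The method was tested on simulated data. Some values of named genes are not reported here. The members and lists were chosen with earlier results of these data known. Alternatives were a limit of 20% mtDNA transcripts, at least 1000 UMIs, other totals, weights, Malat1 limits, scaling, and class definitions.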

Additional observations from a re-analysis of the deposited data

Results flagged for a closer look

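In pooled shares, the RP share differed between genotypes in opposite directions in different classes of barcodes. It was lower in ND6 in bipolar cells (log2 ratio of ND6 to WT -0.018), in microglia-like barcodes (-0.058), and in red blood cells (-1.50), while it was higher in the other named classes. Low-Malat1 barcodes were lower in ND6 (-0.075) and high-Malat1 barcodes higher (0.081). The low-Malat1 groups differed in mix, with 57.0% of all WT but 27.8% of all ND6 barcodes below a Malat1 share of 0.25%. In the narrower steps up to 1.5% the ratios were 0.011, -0.017, 0.15, and 0.12. With barcodes weighted equally, each named class was lower in ND6, from -0.025 in microglia-like barcodes to -0.68 in red blood cells, and so were high-Malat1 (-0.025) and low-Malat1 barcodes (-0.053). In pooled shares of low-Malat1 barcodes, cones, bipolar cells, amacrine cells, Müller glia, RPE, and unnamed barcodes were higher in ND6, from 0.062 to 0.19. With equal weights these named classes were lower at low Malat1, from -0.13 in cones to -0.27 in bipolar cells. The unnamed barcodes stayed higher, at 0.15. Each class and group has 1 library per genotype, so none of these differences was tested.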

How the results depend on the processing

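The ratio of ND6 to WT of the RP share (0.037) was 0.13 with at most 20% mtDNA transcripts, 0.059 with at least 1000 UMIs, and 0.039 under another choice of members, and reversed to -0.033 without Malat1 and mtDNA transcripts and to -0.090 with barcodes weighted equally. The gap between Malat1 groups kept its direction. In WT (1.12) it was 1.11 under the mtDNA limit, 1.10 with at least 1000 UMIs, 1.27 without Malat1 and mtDNA transcripts, 1.12 with equal weights, 1.27 with Malat1 limits of 4% and 1%, and 1.19 in rods. In ND6 (0.96) these values were 0.94, 0.95, 0.98, 1.09, 1.18, and 1.07. The median RP gene (0.042 in ND6 over WT) was 0.15 under the mtDNA limit and 0.068 with at least 1000 UMIs, and -0.12 with scaling by the median of ratios. It stayed at 0.042 with no limit on UMIs. Median-of-ratios scaling sets the typical gene to about 0, while in CPM the median of all genes was 0.17.

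By class, the alternatives gave from -0.061 to 0.19 in rods, -0.051 to 0.24 in cones, -0.14 to -0.0040 in bipolar cells, -0.38 to 0.092 in amacrine cells, -0.36 to 1.17 in Müller glia, -0.12 to 0.022 in microglia-like barcodes, -0.20 to 0.15 in RPE, and -1.71 to -0.68 in red blood cells. Equal weights reversed the ratio in rods (-0.061), cones (-0.051), amacrine cells (-0.38), Müller glia (-0.36), and RPE (-0.20). Amacrine cells also reversed when classes were assigned barcode by barcode (-0.32) and without the 5% of barcodes with most UMIs (-0.033), as did the microglia-like class in the former case (0.022). The unnamed barcodes reversed under the mtDNA limit (-0.12), with at least 1000 UMIs (-0.022), and without Malat1 and mtDNA transcripts (-0.13). The cause was not tested. No paired analysis was possible because there is 1 library per genotype, and doublets were not called.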

Other observations

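Retro-copies of RP genes, inserted copies of a processed mRNA, were not members by the rule, and were examined after the values of the members had been seen. Of 6 listed under a member's name, 4 had at least 20 UMIs, and all 4 were higher in ND6 by at least 0.5 on the log2 scale, where 26.4% of 16076 genes were. Rpl9-ps6 had 2301 UMIs in WT and 5945 in ND6, a log2 difference of 1.36 (1.30 to 1.43), and it made up 1.60% and 4.15% of the counts of Rpl9 and this copy together. Rpl10-ps3 had 851 and 1916 UMIs (1.17), Rps27rt 3800 and 7260 (0.93), and Rpl36a-ps1 259 and 462 (0.83). The parents moved the other way or little, at -0.045 for Rpl9, -0.22 for Rpl10, -0.13 for Rps27, and 0.082 for Rpl36a. Counted together with its copy, Rpl10 was at -0.15, Rps27 at -0.078, and Rpl9 at -0.0071.

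The copies were higher in ND6 in rod-like barcodes and in both Malat1 groups. In rod-like barcodes the differences were 1.45 for Rpl9-ps6, 1.26 for Rpl10-ps3, 1.01 for Rps27rt, and 0.81 for Rpl36a-ps1. At low Malat1 they were 1.30, 1.26, 0.82, and 0.68, and at high Malat1 1.34, 0.90, 0.89, and 0.94, in the same order. The free RNA range held few counts and did not show the same for each copy. There Rpl10-ps3 had 6 UMIs in WT and 10 in ND6 (-0.092), and Rpl36a-ps1 had 2 and 3 (-0.30). Rpl9-ps6 was at 0.56 (-0.17 to 1.38) and Rps27rt at 0.33 (-0.43 to 1.17). A copy resembles its parent, and how reads were divided between them was not tested.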
